A study of Rattus norvegicus with 20 samples.

Results

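The effect of antibiotics on gene expression was examined in the nucleus accumbens of male Sprague-Dawley rats. This ventral striatal region belongs to the brain's reward circuit, and the rats self-administered cocaine. The comparison holds 9 of the 20 libraries of the study. It sets rats that drank antibiotics, labelled as having a depleted microbiome (Abx, n = 4), against rats that drank water and kept a normal microbiome (H2O, n = 5). The members were chosen by their treatment label alone, though with earlier results of these data known. All 9 rats were wild type, 7 to 9 weeks of age, housed 2 to a cage and given food and their drink without limit, and both groups took cocaine, so that neither is a drug-free group. The antibiotics, their doses and the length of treatment do not appear in the labels used here. The remaining 11 libraries, from rats given short-chain fatty acids with or without antibiotics, entered the model for its estimate of the spread between rats. Each library is 1 rat with its own title number. Abx replicates 1 and 2 and H2O replicates 1 and 2 have numbers in the 2-hundreds, and Abx replicates 3 and 4 and H2O replicates 3 to 5 have numbers in the 3-hundreds. Library totals ran from 17525358 to 25366231 counts in Abx and from 18223766 to 22235777 counts in H2O. H2O replicate 1 stood apart from its group in interferon-induced genes, H2O replicate 5 in cortical marker genes, and Abx replicate 3 had the lowest myelin levels, and list values without these rats stand beside the results that they move most. Per-rat values below are counts scaled to library size (CPM), in the order of replicates 1 to 4 for Abx and 1 to 5 for H2O.

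Oral antibiotics kill much of the gut flora, and with it a main source of short-chain fatty acids and of bacterial products that reach the body. The gut flora is known to act on myelination, on microglia and on the blood-brain barrier in rodents. The accumbens consists mostly of medium spiny neurons, which carry either D1 or D2 dopamine receptors, set among oligodendrocytes, astrocytes, microglia and vessels. Myelin is made by oligodendrocytes. Class II proteins of the major histocompatibility complex (MHC) present peptides to T cells and in brain are made mainly by activated microglia and by macrophages.

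No single gene passed the test. Of 12846 genes tested with edgeR's quasi-likelihood test, 0 (0%) had a Benjamini-Hochberg adjusted p below 0.05, and the smallest adjusted p was 0.563. The unadjusted p was below 0.05 for 1129 genes (8.79%), of which 419 (3.26%) were higher and 710 (5.53%) lower in Abx. This balance turned when H2O replicate 5 was left out, to 708 higher and 571 lower, and when Abx replicate 3 was left out, to 328 higher and 292 lower, and it was 532 higher and 614 lower with no filter on low counts. Among the alternative tests, DESeq2 called 1 gene, Tmed10, at an adjusted p of 0.0342, while limma-voom with quality weights called 0. The unadjusted p was below 0.05 for 1180 genes in DESeq2 and 1650 in limma-voom. All 4 Abx rats lay above all 5 H2O rats for 114 genes (0.887%) and below all of them for 1.57% of genes. These percentages over all genes are the background for the counts of list members in the main fit below. When 1 library was left out, 266 to 708 genes were higher and 292 to 787 lower at an unadjusted p below 0.05. Log2 fold changes were small for most genes, with a median of -0.01 and an interquartile range from -0.09 to 0.09, and 146 genes were at least 2-fold higher and 34 at least 2-fold lower in Abx. The adjusted p by edgeR was 0.563 for every gene whose log2 fold change over all 9 rats is given below with its SE, unless another value stands beside it. A difference described below is therefore one of measured values. The p-values measure only the spread between rats, estimated over all 20 libraries and not the 9 compared ones alone.

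Glial and immune gene lists lay mostly on the lower side in Abx. Voltage-gated channel, vesicle release, glutamate receptor and activity-regulated lists lay mostly on the higher side. GABA receptor genes were mixed, with 6 of 14 positive and a median of -0.02. All 25 tested myelin genes and all 15 tested MHC and antigen presentation genes had negative log2 fold changes (Abx over H2O), against 52.3% of all genes. Of 40 immediate early genes 37 had positive ones, as did 24 of 30 voltage-gated channel genes, against 47.7% of all genes. Medium spiny neuron genes had a median near 0, negative in the 2-hundreds and positive in the 3-hundreds.

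**Figure D1:**
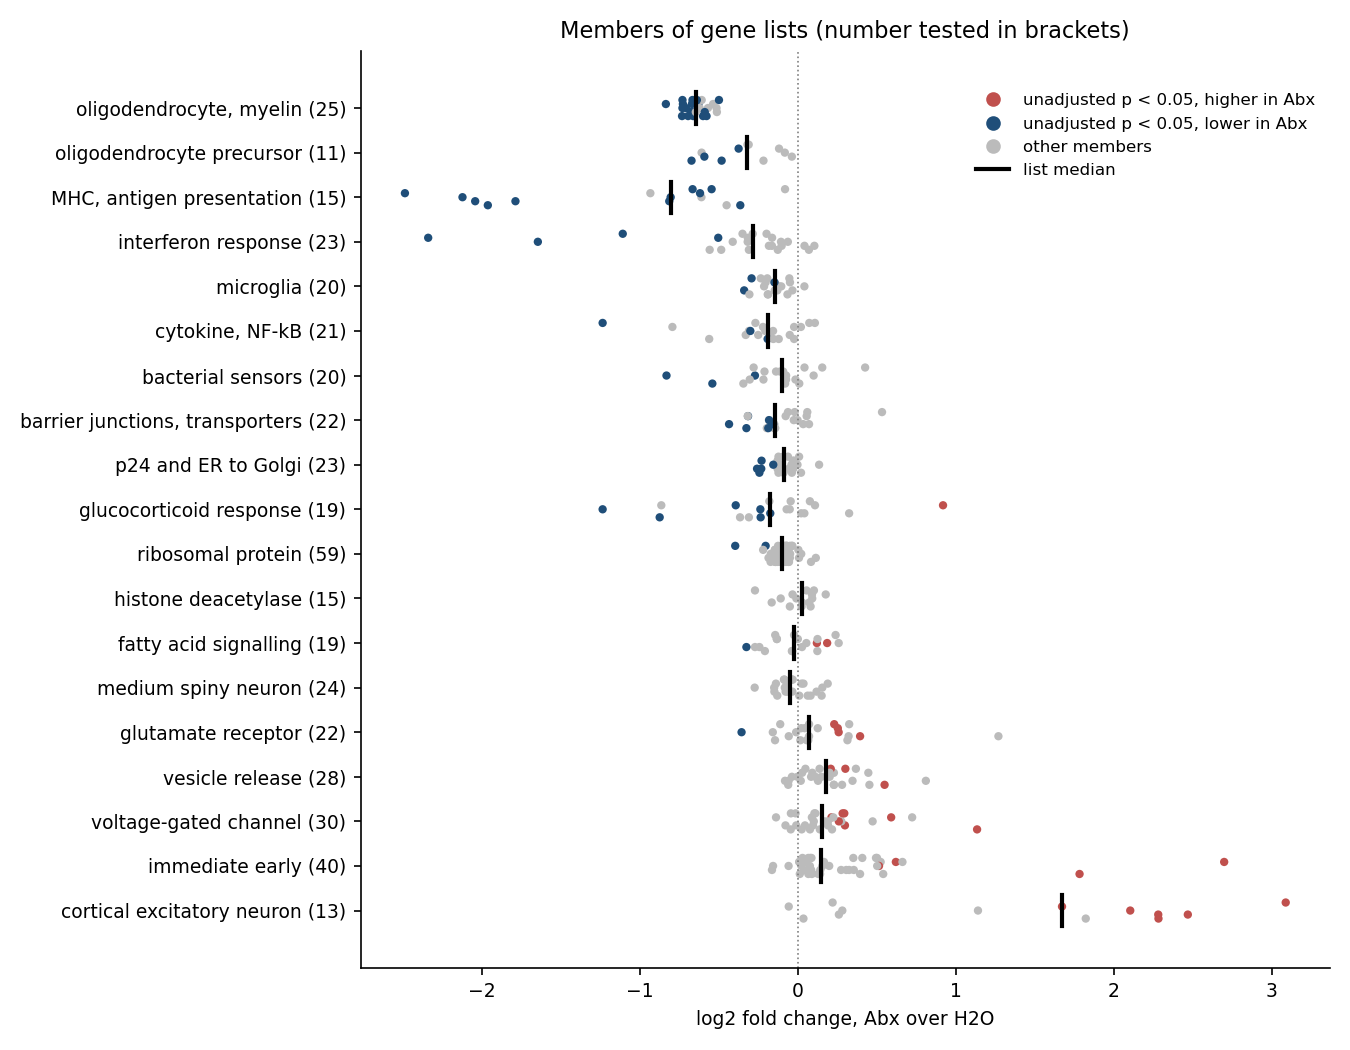
Log2 fold change (Abx over H2O, horizontal axis) of each tested member of 19 gene lists, 1 row per list and 1 point per gene. Dark blue and red points had an unadjusted p below 0.05 on the lower and higher side, grey points did not, and black bars mark list medians, from -0.80 for MHC and antigen presentation and -0.64 for myelin at the lower end to 1.67 for cortical excitatory neurons at the higher end.

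The tissue label was checked against markers of medium spiny neurons, which were abundant in every rat. Other parts of the striatum share these markers, so that they cannot single out the accumbens. Drd1, the D1 dopamine receptor, stood at 333, 364, 462 and 337 CPM in Abx rats, against 411, 511, 379, 411 and 321 CPM in H2O rats. Drd2, the D2 receptor, stood at 189.5, 207.1, 271 and 188 CPM in Abx rats, against 218, 247, 223, 165 and 196 CPM in H2O rats. The groups overlapped in both genes, with the highest Drd1 rat in H2O and the highest Drd2 rat in Abx. They also overlapped in the peptide precursor genes Pdyn, at 421 ± 64.2 CPM in Abx rats (SD, n = 4) and 439.9 ± 83.8 CPM in H2O rats (SD, n = 5), and Penk, at 1157 ± 247 CPM in Abx rats (SD, n = 4) and 1212 ± 184 CPM in H2O rats (SD, n = 5). Ppp1r1b, which encodes the dopamine-regulated phosphatase inhibitor DARPP-32, averaged 1816 ± 269 CPM in Abx rats (SD, n = 4) and 1904 ± 252 CPM in H2O rats (SD, n = 5). Tac1, the substance P precursor, averaged 264 ± 45.7 CPM in Abx rats (SD, n = 4) and 265 ± 49.1 CPM in H2O rats (SD, n = 5). Over 24 tested genes of medium spiny neurons, the median log2 fold change was -0.05, with 9 positive and 15 negative values and 0 genes at an unadjusted p below 0.05. The median was -0.21 in the 2-hundreds, with 0 of 24 positive, and 0.14 in the 3-hundreds, with 20 of 24 positive, and Drd1 had -0.40 and 0.11 in the same order. With a score of cortical marker genes as a covariate, a measure described with the immediate early genes, the median was 0.25, with 23 of 24 positive. In that setting 4 of 24 were higher at an unadjusted p below 0.05, against 548 of all 12846 genes. A test of the difference between the series is given at the end. Of neighbouring tissues, choroid plexus genes had a median of -0.06 over 5 tested of 8 listed genes, with the defining gene Ttr too low to be tested, and meningeal genes 0.00 over 10 genes. Ependymal genes had a median of 0.10 over 8 genes, which was 0.67 in the 2-hundreds, -0.65 in the 3-hundreds and -0.56 without Abx replicate 2, whose score of 2.73 mean log2 CPM stood above the 0.75 to 1.22 of the other Abx rats. Genes of septal and other neighbouring nuclei had a median of 0.15 over 10 genes, 6 of them positive and 4 negative. Of these 10 genes 3 were higher at an unadjusted p below 0.05, against 3.26% of all genes. Their largest log2 fold change was 2.13. Markers of cortical neurons are given with the immediate early genes.

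Among genes lower in Abx, the smallest p belonged to Tmed10, a p24 cargo receptor of vesicles between the endoplasmic reticulum and the Golgi. Its level was 87.3, 85.8, 80.5 and 91.1 CPM in Abx rats, against 95.5, 106, 106, 107 and 101 CPM in H2O rats. All Abx rats lay below all H2O rats, and the log2 fold change was -0.26 ± 0.055 (SE). Tgfa, a ligand of the EGF receptor, had 50.8, 63.5, 47.1 and 67.0 CPM in Abx rats, against 80.1, 97.03, 97.6, 99.8 and 86.4 CPM in H2O rats. The groups again did not overlap, with means of 57.1 CPM in Abx and 92.2 CPM in H2O (-0.69 ± 0.16). Itch, a ubiquitin ligase that restrains T cell activation, had 56.8, 53.5, 48.3 and 59.2 CPM in Abx rats, against 59.04, 64.9, 65.6, 71.7 and 70.7 CPM in H2O rats, and the lowest H2O rat lay among the Abx rats (-0.29 ± 0.07). Gatm, the first enzyme of creatine synthesis, had 231, 255, 198 and 204 CPM in Abx rats, against 300.1, 287, 298, 324 and 312.1 CPM in H2O rats, without overlap (-0.45 ± 0.13). Itgal, the alpha chain of the leukocyte integrin LFA-1, was low in all libraries, at 2.80, 2.46, 3.59 and 4.32 CPM in Abx rats, against 10.1, 4.58, 5.57, 4.78 and 6.85 CPM in H2O rats. Every H2O rat was higher than every Abx rat, and the log2 fold change was -0.95 ± 0.25.

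A further 9 of the 15 lower genes with the smallest p had log2 fold changes from -0.81 to -0.25. The transcription factor gene Ovol1 (-0.72 ± 0.18), the caveolin gene Cav2 (-0.47 ± 0.12), the flavin monooxygenase gene Fmo4 (-0.62 ± 0.16) and the fucosyltransferase gene Fut8 (-0.26 ± 0.075) were without overlap between groups, as was the class I MHC gene RT1-A2 described below. In Galnt4, which adds O-linked glycans (-0.56 ± 0.14), the ribosomal protein gene Rpl30 (-0.40 ± 0.10), Eya4 (-0.63 ± 0.17) and the phosphatase subunit gene Ppp2r3c (-0.25 ± 0.071) the groups touched or overlapped. These genes were picked for their p, so that their separation is a description.

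Among genes higher in Abx, Lrrfip1, a nucleic acid sensor and actin regulator, had the smallest p. It stood at 46.6, 39.98, 46.2 and 42.4 CPM in Abx rats, against 37.2, 33.99, 32.9, 36.3 and 34.3 CPM in H2O rats, without overlap (0.33 ± 0.087). Usp13, a deubiquitinase, had 61.6, 57.6, 67.2 and 63.2 CPM in Abx rats, against 54.4, 54.6, 53.5, 50.2 and 46.9 CPM in H2O rats, also without overlap (0.27 ± 0.078), and so did Bdh1, the mitochondrial enzyme of ketone body metabolism, at 43.6, 36.8, 39.5 and 38.9 CPM in Abx rats, against 34.3, 33.8, 35.002, 34.8 and 36.5 CPM in H2O rats (0.19 ± 0.055). The remaining 12 of the 15 higher genes overlapped between groups. Pde4a, a phosphodiesterase that breaks down cyclic AMP, had 64.7, 47.3, 59.3 and 62.2 CPM in Abx rats, against 42.4, 41.7, 45.03, 40.1 and 49.9 CPM in H2O rats, with 1 H2O rat above the lowest Abx rat (0.41 ± 0.11). Kdm6b, a demethylase of histone H3, had 74.5, 62.2, 64.7 and 72.9 CPM in Abx rats, against 49.99, 55.6, 52.3, 49.5 and 62.3 CPM in H2O rats (0.35 ± 0.10). Ptprs, a receptor phosphatase that binds proteoglycans at synapses, averaged 525 ± 48.1 CPM in Abx rats (SD, n = 4) and 419 ± 33.8 CPM in H2O rats (SD, n = 5). Their H2O replicate 5 was the highest of its group each time.

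The other 9 higher genes were Tango2, the mitochondrial valine tRNA ligase gene Vars2, Rab26 of secretory vesicles, the semaphorin gene Sema4g, the chaperone gene Dnajb5, the sterol transporter gene Abcg4, the receptor kinase gene Mst1r, Loxhd1 and Klhl14. Tango2, Vars2, Rab26, Sema4g, Dnajb5 and Abcg4 had log2 fold changes between 0.26 and 0.45. Mst1r had 2.53, 1.47, 3.13 and 3.33 CPM in Abx rats, against 1.62, 0.906, 1.27, 0.811 and 1.56 CPM in H2O rats (1.08 ± 0.33), and Loxhd1 had 1.74, 0.899, 2.28 and 1.70 CPM in Abx rats, against 1.10, 1.06, 0.551, 0.270 and 0.993 CPM in H2O rats (1.05 ± 0.31). Klhl14 had 0.316, 0.379, 2.11 and 12.3 CPM in Abx rats, against 0.0523, 0.352, 0, 0.225 and 0.567 CPM in H2O rats. It was far higher in Abx replicate 4 than in any other rat, its fitted log2 fold change was 3.92 ± 1.12, and without that rat it was 1.84. With the cortical marker score as a covariate, a measure described below, the log2 fold changes of Pde4a, Ptprs, Kdm6b and Tango2 were 0.20, 0.19, 0.19 and 0.14, against 0.41, 0.33, 0.35 and 0.27 without it, and that of Lrrfip1 was 0.32 with it and 0.33 without it.

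**Figure D2:**
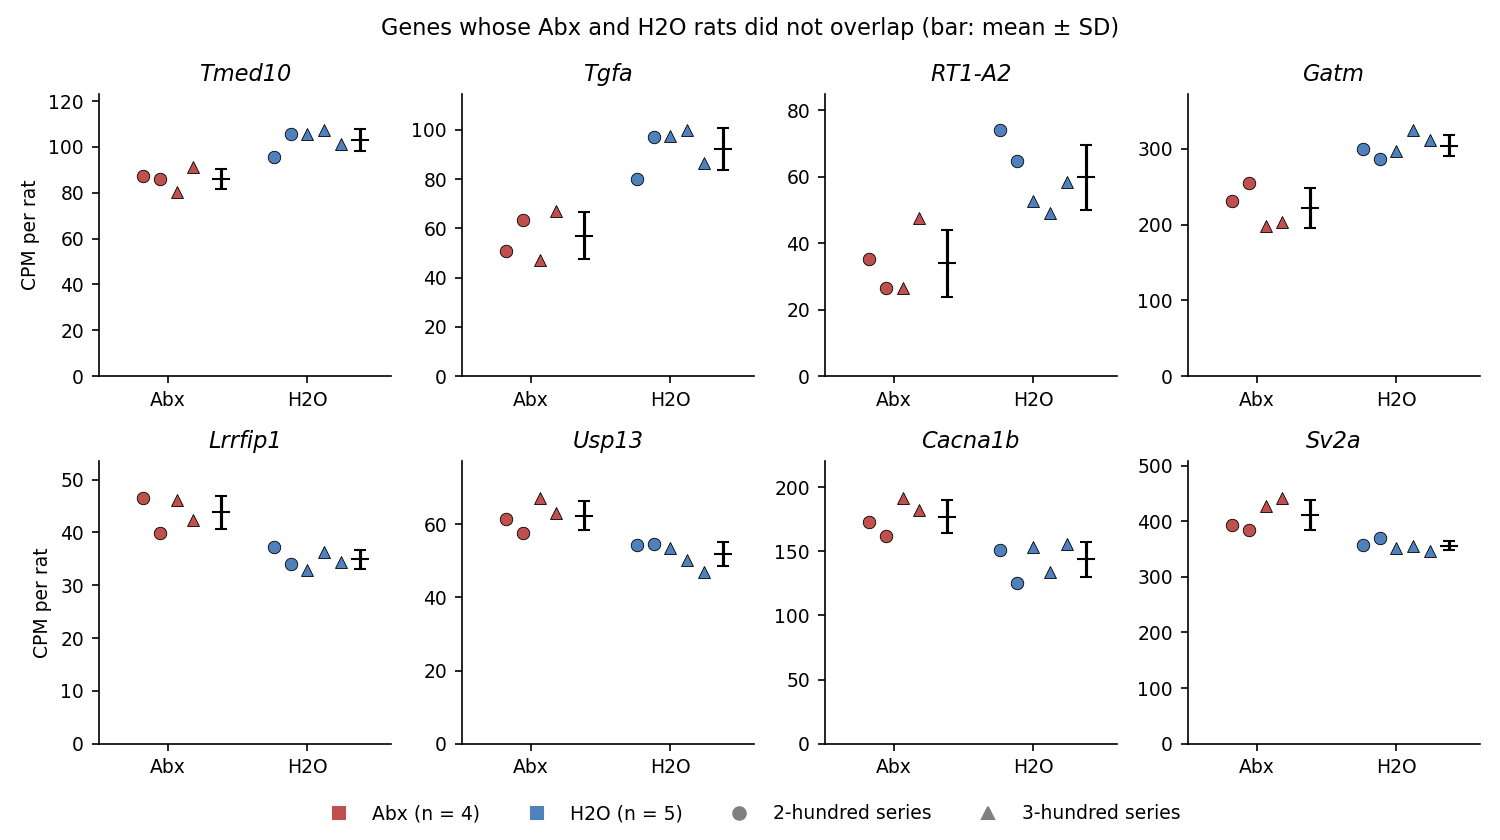
CPM per rat (vertical axes, starting at 0) of 8 genes whose Abx (red, left) and H2O (blue, right) rats did not overlap, with circles for the 2-hundred and triangles for the 3-hundred number series and bars for mean ± SD. Tmed10, Tgfa, RT1-A2 and Gatm were lower in each of the 4 Abx rats than in any of the 5 H2O rats, and Lrrfip1, Usp13, Cacna1b and Sv2a were higher.

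Myelin genes were lower in Abx as a group. Of 26 listed genes 25 were tested, and all 25 had negative log2 fold changes within a narrow span, from -0.83 to -0.50, with a median of -0.64 (median of all genes -0.01). An unadjusted p below 0.05 was reached by 18 of the 25, against 5.53% of all genes on this side, and 6 of 25 were without overlap, against 1.57% of all genes. Mbp, myelin basic protein, had 5689, 5236, 2877 and 6083 CPM in Abx rats, against 6944, 6383, 7989, 9269.9 and 10538 CPM in H2O rats. The groups did not overlap, with a log2 fold change of -0.73 ± 0.30. Abx replicate 3 stood well below the other Abx rats, and H2O replicates 3 to 5 above H2O replicates 1 and 2.

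In the metabolic genes of oligodendrocytes given next, Abx replicate 3 was again the lowest rat. Enpp2, the lysophospholipid-producing enzyme autotaxin, had 151, 176, 93.4 and 199 CPM in Abx rats, against 198, 207.4, 288, 289 and 272 CPM in H2O rats, where Abx replicate 4 lay just above the lowest H2O rat (-0.69 ± 0.24). Car2, a carbonic anhydrase, had 213, 201.6, 135 and 247 CPM in Abx rats, against 244, 287, 322, 359.6 and 359.5 CPM in H2O rats (-0.66 ± 0.23). Aspa, which splits N-acetylaspartate, had 25.2, 31.99, 16.8 and 28.7 CPM in Abx rats, against 33.1, 32.98, 45.03, 42.5 and 41.2 CPM in H2O rats, without overlap (-0.60 ± 0.22). Plekhb1 averaged 398 ± 75.9 CPM in Abx rats (SD, n = 4) and 562 ± 31.2 CPM in H2O rats (SD, n = 5), also without overlap (-0.50 ± 0.18).

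Genes of the precursor cells were lower too, though by less. Of 13 listed genes 11 were tested, and all 11 had negative values, with a median of -0.32 and 4 at an unadjusted p below 0.05. Leaving out Abx replicate 3, H2O replicate 4 or H2O replicate 5 left 1 of 11 at that p. Of all 12846 genes, 292, 446 and 571 were lower at that p in these settings. Leaving out Abx replicate 4 or H2O replicate 2 gave 5 of 11, against 713 and 710 of all genes. With the myelin score, described below, as a covariate the median was 0.0032, with 6 of 11 positive. Olig2 and Olig1, transcription factors of the whole lineage, had log2 fold changes of -0.59 ± 0.18 and -0.48 ± 0.21. Bcas1, a marker of cells that have just begun to myelinate, had 430.4, 360.2, 218 and 459 CPM in Abx rats, against 488, 473, 541, 693 and 728 CPM in H2O rats, without overlap (-0.67 ± 0.28). Gpr17, a receptor of committed precursors, had 21.9, 20.9, 18.3 and 26.2 CPM in Abx rats, against 20.4, 23.6, 30.5, 30.5 and 36.7 CPM in H2O rats (-0.37 ± 0.18, adjusted p by edgeR 0.565). Pdgfra, which defines the dividing precursors, averaged 137 ± 10.3 CPM in Abx rats (SD, n = 4) and 145 ± 15.5 CPM in H2O rats (SD, n = 5), and these overlapped. In bulk tissue, fewer cells of a type and less RNA per cell cannot be told apart. How much myelin-rich tissue each dissection took in was not tested.

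The myelin score, the mean log2 CPM of the 25 genes, was 7.61, 7.75, 6.91 and 7.96 in Abx rats, against 7.98, 7.996, 8.33, 8.44 and 8.44 in H2O rats. The highest Abx rat and the lowest H2O rat differed by little, and the gap was wider in the 3-hundreds, where the median of the genes was -0.89, than in the 2-hundreds, where it was -0.28. Leaving out Abx replicate 3 gave a median of -0.46 and left 2 of 25 genes at an unadjusted p below 0.05, against 292 of all 12846 genes on this side. Leaving out H2O replicate 5 as well, a setting chosen after seeing the data, gave -0.42 with 0 of 25 genes at that p. Among all genes, 654 were then higher and 334 lower at that p. With the cortical marker score as a covariate the median was -0.41, with 0 of 25 genes below that p.

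**Figure D3:**
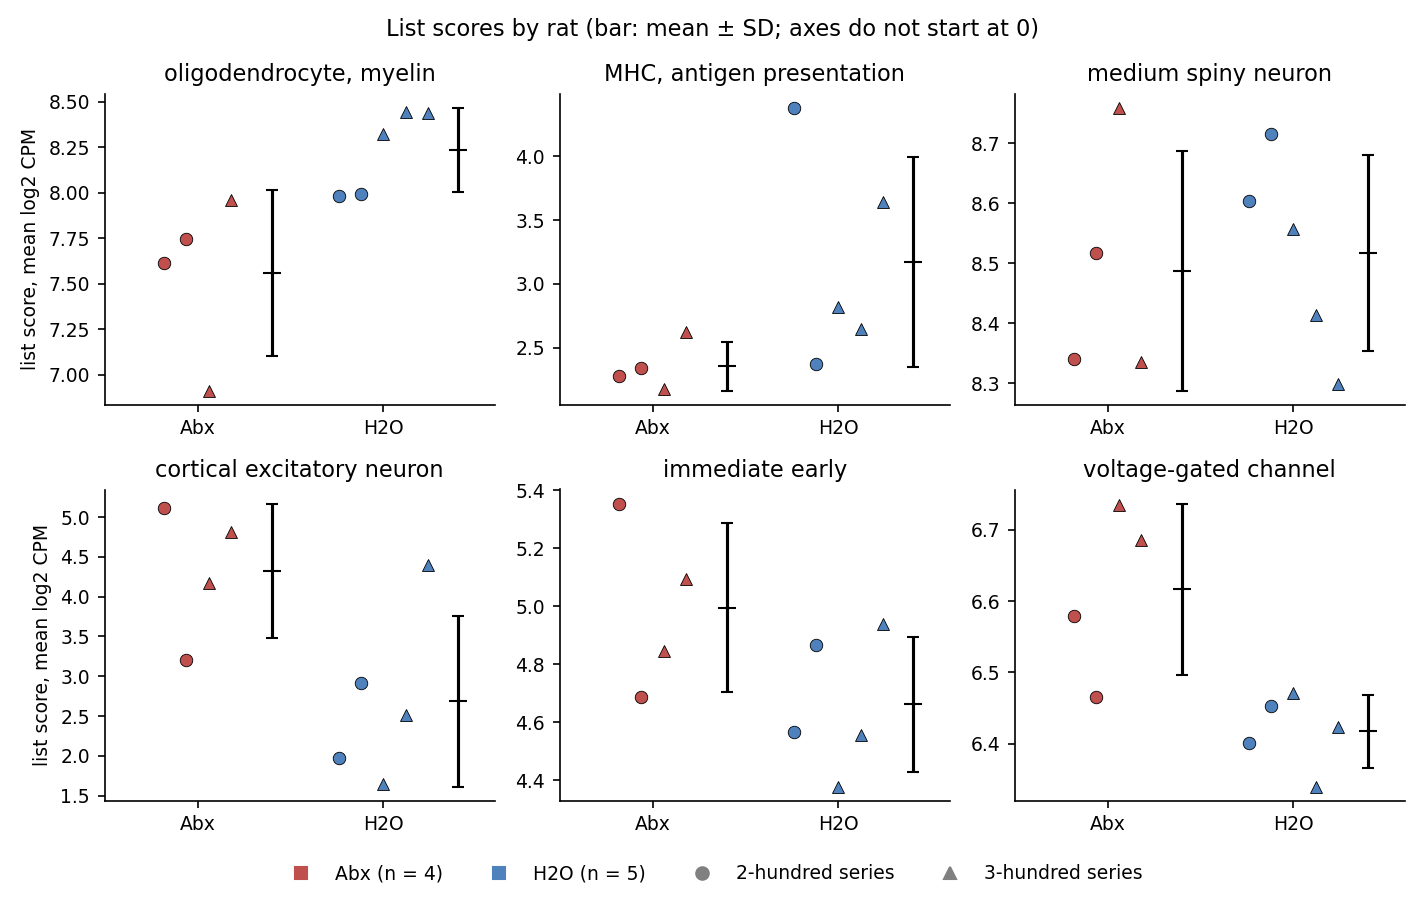
List scores per rat (mean log2 CPM of the list's genes, vertical axes, which do not start at 0) for 6 lists, with Abx in red on the left and H2O in blue on the right, circles for the 2-hundred and triangles for the 3-hundred series, and bars for mean ± SD. The 4 Abx rats lay below all 5 H2O rats in the myelin score, at 6.91 to 7.96 against 7.98 to 8.44, while the medium spiny neuron score overlapped throughout.

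MHC genes had the lowest median of the lists, and the class II genes were high in some H2O rats and low in all Abx rats. Of 18 listed MHC and antigen presentation genes 15 were tested, all 15 had negative values in both number series, the median was -0.80, and 11 of 15 had an unadjusted p below 0.05. The class II chain genes RT1-Da, RT1-Db1, RT1-Ba and RT1-Bb lie close together on chromosome 20. Their promoters are shown because the shared factors of class II genes act at known upstream elements, the X and Y boxes. The sequences are the 120 bases before the start of each gene, 5′ to 3′ on the gene's strand, from RefSeq on the build GRCr8, which is later than the authors' Rnor_6.0. They are chr20:4515295-4515414 (+ strand), chr20:4560163-4560282 (- strand), chr20:4576937-4577056 (+ strand) and chr20:4604119-4604238 (- strand), and capitals mark matches to the Y box letters CTGATTGG or to the X box core letters GCAACNGAT.
RT1-Da: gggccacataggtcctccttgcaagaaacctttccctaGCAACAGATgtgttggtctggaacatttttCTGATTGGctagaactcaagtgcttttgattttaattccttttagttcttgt
RT1-Db1: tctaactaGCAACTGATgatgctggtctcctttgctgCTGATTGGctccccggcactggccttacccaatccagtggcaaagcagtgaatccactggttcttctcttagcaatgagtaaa
RT1-Ba: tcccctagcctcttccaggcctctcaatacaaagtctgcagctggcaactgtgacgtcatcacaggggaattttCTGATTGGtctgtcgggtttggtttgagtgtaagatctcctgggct
RT1-Bb: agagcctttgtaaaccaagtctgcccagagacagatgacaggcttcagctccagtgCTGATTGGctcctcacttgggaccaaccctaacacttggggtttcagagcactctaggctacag

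The search covered both strands of 300 bases, from 250 before to 50 after the start. The Y box letters were found once in each of these 4 genes, starting 52, 83, 46 and 64 bases before the start of RT1-Da, RT1-Db1, RT1-Ba and RT1-Bb. They occurred in 1172 of 33465 promoters of this length (3.5%), and in 7 of the 15 listed MHC and antigen presentation genes that the RefSeq table holds. The X box core letters were found in RT1-Da and RT1-Db1, 82 and 112 bases before the start, ahead of the Y box and not overlapping it, and in 132 of 33465 promoters (0.394%). A match is a description of the letters and not a measured binding site. Only the stated letters were searched, so that a missing match in RT1-Ba and RT1-Bb does not mean that they lack an X box.

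Cd74, the invariant chain that guides class II molecules, had 7.78, 15.8, 10.8 and 23.7 CPM in Abx rats, against 88.3, 20.2, 39.5, 18.2 and 85.0 CPM in H2O rats. H2O replicates 1 and 5 were the highest rats, H2O replicate 3 came next, and H2O replicates 2 and 4 lay within the range of Abx (-1.79 ± 0.53). RT1-Da, a class II alpha chain, had 1.78, 4.12, 2.11 and 4.83 CPM in Abx rats, against 20.9, 4.63, 11.5, 3.38 and 22.5 CPM in H2O rats (-1.96 ± 0.61). RT1-Db1, its beta chain, had 0.869, 1.75, 1.71 and 2.85 CPM in Abx rats, against 12.03, 2.37, 5.90, 2.25 and 14.6 CPM in H2O rats (-2.04 ± 0.62). The same H2O rats were high in each, and H2O replicates 2 and 4 were again among the Abx rats. RT1-Ba had 1.5005, 0.852, 0.798 and 2.38 CPM in Abx rats, against 16.003, 0.705, 2.26, 2.03 and 9.74 CPM in H2O rats (-2.12 ± 0.71), and RT1-Bb had 0.474, 0.804, 0.456 and 1.43 CPM in Abx rats, against 11.98, 0.403, 1.27, 1.13 and 7.85 CPM in H2O rats (-2.49 ± 0.83). This second pair was named after its values were seen. None of the 4 Abx rats reached the levels of H2O replicates 1, 3 and 5 in Cd74, RT1-Da or RT1-Db1, and 2 of 5 H2O rats did not either.

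Class I differed in another way. RT1-A2, a class I heavy chain, had 35.1, 26.4, 26.6 and 47.7 CPM in Abx rats, against 73.9, 64.7, 52.7, 49.2 and 58.5 CPM in H2O rats. All Abx rats lay below all H2O rats, H2O replicates 2 and 4 included, and the log2 fold change was -0.81 ± 0.21, with -1.17 in the 2-hundreds and -0.52 in the 3-hundreds. Rat class I genes are close copies of each other, so that their reads may be split or shared between them. Of the 15 tested genes, 4 were without overlap, against 1.57% of all genes. Leaving out H2O replicate 1 gave a list median of -0.20 with 7 of 15 genes at an unadjusted p below 0.05, and leaving out H2O replicates 1 and 5 together gave -0.18 with 1 of 15. Of all 12846 genes, 777 and 623 were lower at that p in these settings. RT1-A2 kept a negative value in every setting run, from -1.01 to -0.71 when 1 library was left out.

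**Figure D4:**
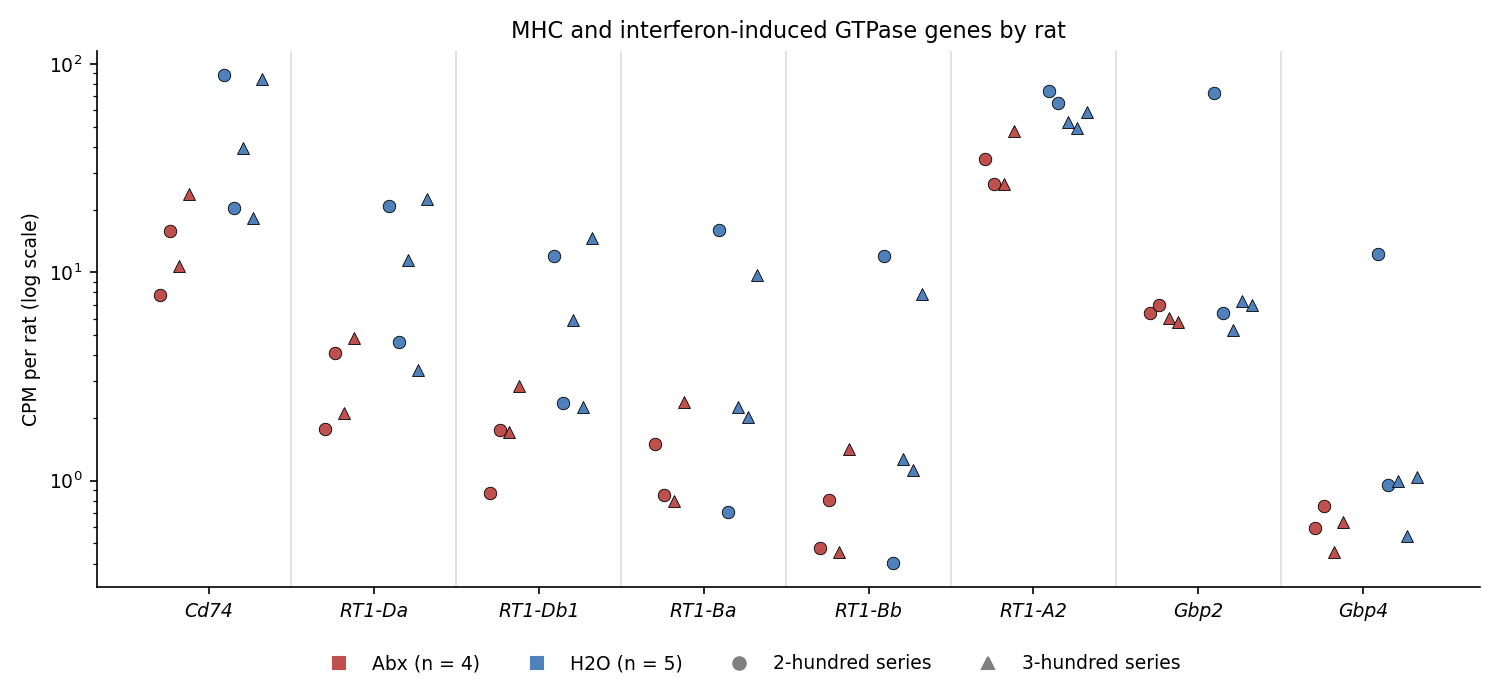
CPM per rat (vertical log axis) of class II genes (Cd74, RT1-Da, RT1-Db1, RT1-Ba, RT1-Bb), the class I gene RT1-A2 and the GTPase genes Gbp2 and Gbp4, with Abx in red on the left and H2O in blue on the right of each gene, and circles for the 2-hundred and triangles for the 3-hundred series. H2O replicates 1 and 5 stood above every Abx rat in the class II genes, and H2O replicate 1 alone stood apart in Gbp2, at 72.4 CPM, and in Gbp4, at 12.2 CPM.

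Interferon-induced genes were lower in Abx in 20 of 23 tested members, with a median of -0.28, but 1 H2O rat held much of the difference. Gbp2, a guanylate-binding protein induced by interferon gamma, had 6.36, 6.96, 6.04 and 5.75 CPM in Abx rats, against 72.4, 6.39, 5.29, 7.26 and 6.997 CPM in H2O rats. Gbp4 had 0.592, 0.757, 0.456 and 0.634 CPM in Abx rats, against 12.2, 0.957, 0.992, 0.541 and 1.04 CPM in H2O rats, and Gbp5 had 3.44, 3.41, 2.56 and 3.09 CPM in Abx rats, against 21.6, 3.07, 2.92, 2.97 and 3.31 CPM in H2O rats. H2O replicate 1 was high in each of them, and the other 4 H2O rats lay near the levels of Abx. The log2 fold changes of the 3 genes, -1.64 ± 0.64, -2.34 ± 0.79 and -1.11 ± 0.50, were -0.05, -0.52 and 0.03 without that rat. Isg15, a ubiquitin-like protein induced by type I interferon, had 1.74, 2.37, 1.94 and 1.27 CPM in Abx rats, against 3.24, 1.81, 2.81, 2.21 and 2.84 CPM in H2O rats, with overlap (-0.50 ± 0.20). The list median was -0.05 without H2O replicate 1. Leaving out H2O replicate 5 gave -0.17, leaving out Abx replicate 4 gave -0.16 and leaving out H2O replicates 1 and 5 together gave 0.03.

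Microglial genes were lower by small amounts. Of 20 tested genes 19 were negative, the median was -0.15, and 3 had an unadjusted p below 0.05. Fcer1g, the signalling chain of Fc receptors, had 15.2, 12.3, 14.4 and 14.3 CPM in Abx rats, against 22.2, 16.3, 15.98, 13.3 and 20.99 CPM in H2O rats (-0.34 ± 0.13). Ptprc, which encodes CD45 on all white blood cells and microglia, had 9.08, 7.71, 10.3 and 10.3 CPM in Abx rats, against 14.5, 9.06, 11.9, 10.7 and 11.1 CPM in H2O rats (-0.29 ± 0.13). Both Fcer1g and Ptprc were highest in H2O replicate 1. Aif1, the IBA1 marker of microglia, averaged 16.05 ± 3.73 CPM in Abx rats (SD, n = 4) and 16.8 ± 2.37 CPM in H2O rats (SD, n = 5) and overlapped. The list median was -0.09 without H2O replicate 5, with 0 genes at that p, and -0.04 without H2O replicates 1 and 5.

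Among cytokine and NF-kB genes, 18 of 21 tested members were negative with a median of -0.19, and 8 of the 29 listed were too low to be tested or not listed in the table. Tgfb1, an anti-inflammatory cytokine that keeps microglia at rest, had 13.3, 10.1, 9.40 and 12.5 CPM in Abx rats, against 13.8, 14.2, 13.4, 14.4 and 14.1 CPM in H2O rats, without overlap (-0.30 ± 0.10). Rela, the p65 subunit of NF-kB, had 33.9, 35.5, 32.5 and 39.5 CPM in Abx rats, against 39.5, 38.1, 41.8, 39.3 and 43.0 CPM in H2O rats (-0.19 ± 0.089). Lcn2, which binds bacterial siderophores and marks inflamed glia and vessels, had 0.750, 0.7098, 2.22 and 1.55 CPM in Abx rats, against 5.96, 1.91, 2.32, 2.52 and 2.51 CPM in H2O rats, highest in H2O replicate 1 (-1.23 ± 0.39). The list median was 0.01 without H2O replicates 1 and 5.

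Receptors and adaptors for bacterial products had a median of -0.10 over 20 tested genes, 15 of them negative and 3 at an unadjusted p below 0.05. Tlr1, which senses bacterial lipopeptides together with Tlr2, was low, with 0.434, 0.473, 0.627 and 0.317 CPM in Abx rats, against 0.680, 0.403, 0.992, 0.946 and 1.04 CPM in H2O rats (-0.83 ± 0.30). Casp1, the protease of inflammasomes, had 4.50, 3.36, 3.25 and 3.29 CPM in Abx rats, against 8.68, 4.93, 5.02, 3.79 and 3.88 CPM in H2O rats (-0.54 ± 0.20). Nod1, a sensor of bacterial cell wall fragments, had 15.7, 15.5, 12.8 and 13.7 CPM in Abx rats, against 16.2, 14.5, 18.6, 17.8 and 19.9 CPM in H2O rats (-0.27 ± 0.12), with 0.02 in the 2-hundreds and -0.50 in the 3-hundreds. Tlr4, the receptor for lipopolysaccharide, averaged 2.96 ± 0.355 CPM in Abx rats (SD, n = 4) and 2.94 ± 0.0759 CPM in H2O rats (SD, n = 5), nearly the same in both groups. At these depths a gene with no counts could still have a level of up to 3 counts, which is 0.118 to 0.171 CPM in the 9 libraries. This limit covers counting error only.

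Complement and engulfment genes were negative in 14 of 18 tested members, with a median of -0.18. Megf10, a receptor by which mouse astrocytes engulf synapses, had 28.2, 30.7, 22.96 and 34.99 CPM in Abx rats, against 32.01, 32.5, 39.1, 42.9 and 45.6 CPM in H2O rats (-0.39 ± 0.16). C3, the central complement component, had 63.3, 43.2, 50.8 and 94.0 CPM in Abx rats, against 98.3, 59.2, 103, 77.6 and 118 CPM in H2O rats (-0.54 ± 0.28, adjusted p by edgeR 0.588). C1s, a protease that starts the cascade, had 4.58, 3.83, 4.90 and 4.75 CPM in Abx rats, against 15.5, 6.85, 3.25, 4.46 and 7.19 CPM in H2O rats (-0.72 ± 0.39, adjusted p by edgeR 0.605), again with H2O replicate 1 far above the rest. Without H2O replicates 1 and 5 the list median was 0.02.

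Genes of blood-brain barrier junctions, caveolae and transporters were negative in 17 of 22 tested members, with a median of -0.14. An unadjusted p below 0.05 was reached by 6 of 22, against 5.53% of all genes on this side, and 2 were without overlap. Cav1, which forms caveolae in endothelial cells, had 54.0, 55.7, 52.6 and 62.3 CPM in Abx rats, against 62.4, 68.5, 69.9, 73.1 and 75.2 CPM in H2O rats, without overlap (-0.31 ± 0.094). Its partner Cav2, not on the list, had 24.4, 22.997, 21.6 and 25.99 CPM in Abx rats, against 26.8, 29.8, 37.9, 37.1 and 33.5 CPM in H2O rats, also without overlap. Jam2, a junction adhesion molecule, had 113, 104, 101 and 108 CPM in Abx rats, against 120.1, 117, 121, 133 and 115 CPM in H2O rats, without overlap (-0.18 ± 0.063). The tight junction scaffold gene Tjp1 had 221, 235, 205 and 239 CPM in Abx rats, against 232, 249, 274, 267 and 259 CPM in H2O rats (-0.19 ± 0.069), with H2O replicate 1 among the Abx rats. Slc16a1, a transporter of lactate, ketone bodies and short-chain fatty acids, had 63.8, 62.0, 57.8 and 73.5 CPM in Abx rats, against 65.6, 83.3, 77.7, 90.1 and 85.8 CPM in H2O rats (-0.32 ± 0.12), and the glucose transporter gene Slc2a1 averaged 208 ± 21.7 CPM in Abx rats (SD, n = 4) and 232 ± 7.17 CPM in H2O rats (SD, n = 5). Cldn5, the main claudin of brain endothelium, had 125, 101, 116 and 123 CPM in Abx rats, against 151, 129.8, 116, 136 and 133 CPM in H2O rats (-0.20 ± 0.11, adjusted p by edgeR 0.605).

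The barrier list had a median of -0.09 without Abx replicate 3 and likewise without H2O replicate 5. With the myelin score as a covariate its median was -0.02, and the values of Slc16a1 and Tjp1 were -0.09 and -0.06, while those of Cav1 and Cav2 were -0.15 and -0.22. That score did not overlap between Abx and H2O rats, so that as a covariate it can shrink any group difference. A smaller value with it therefore does not show where a difference came from, here or elsewhere. Oligodendrocytes also express Slc16a1, and their part in its value was not tested. Endothelial and mural genes as a whole had a median of -0.10, with 18 of 23 negative and 1 at an unadjusted p below 0.05.

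Of 18 astrocyte genes 17 were negative, but by little (median -0.06). Gfap, the intermediate filament of astrocytes, had 519.8, 362, 519.8 and 530.1 CPM in Abx rats, against 569, 587, 568, 630.2 and 859.6 CPM in H2O rats, without overlap (-0.41 ± 0.17). Abx replicate 2 was the lowest of its group and H2O replicate 5 the highest of its group. Aqp4, the water channel of their end feet, had 805, 694, 627 and 683 CPM in Abx rats, against 761, 819.5, 934, 923 and 885 CPM in H2O rats (-0.30 ± 0.10). The difference in Aqp4 was -0.48 in the 3-hundreds and -0.08 in the 2-hundreds. Red blood cell genes were negative in 5 of 5 tested members, with a median of -0.60 and 2 at an unadjusted p below 0.05, against -0.27 and 0 without H2O replicate 1. Hbb, beta globin, had 118.7, 58.4, 61.7 and 76.2 CPM in Abx rats, against 216, 121, 70.8, 73.4 and 114 CPM in H2O rats (-0.59 ± 0.28, adjusted p by edgeR 0.566), Alas2, of red cell heme synthesis, had 4.30, 1.80, 2.85 and 2.69 CPM in Abx rats, against 9.31, 5.04, 2.20, 3.02 and 4.54 CPM in H2O rats (-0.72 ± 0.34), and both were highest in H2O replicate 1, the rat that was also high in class II and Gbp genes. Without that rat Hbb had -0.27 and Alas2 -0.34. Globin genes share reads with their near copies. The part of blood cells in the immune gene values was not tested.

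The genes with the smallest p on the lower side belong in part to secretory, growth factor and ubiquitin pathways, which were followed over their families. The family lists hold Tmed10, Tgfa and Itch themselves, which were picked for their p in this same comparison. The list counts below include them and are therefore a description. Of 23 tested p24 and other genes of transport between the endoplasmic reticulum and the Golgi, 20 were negative, with a median of -0.09 and 5 at an unadjusted p below 0.05. Without Abx replicate 3 the median was -0.05, with 3 at that p, against 292 of all 12846 genes on this side. Beside Tmed10, the p24 genes Tmed7, Tmed3 and Tmed5 had log2 fold changes of -0.23 ± 0.07, -0.23 ± 0.089 and -0.24 ± 0.10. Tmed7 stood at 131, 149.9, 132 and 125 CPM in Abx rats, against 152, 176, 156, 164 and 140.4 CPM in H2O rats, with overlap. Tmed10 itself had -0.22 in the 2-hundreds and -0.29 in the 3-hundreds, and -0.28 to -0.23 when 1 library was left out.

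EGF-family ligands and receptors as a list were balanced, with 7 of 13 tested genes positive and a median of 0.02. The genes at an unadjusted p below 0.05 were Tgfa and the sheddases Adam17 and Adam10, which release such ligands from the cell surface. Adam17 had 48.9, 47.0, 39.9 and 46.8 CPM in Abx rats, against 51.04, 49.5, 57.5, 60.3 and 61.0 CPM in H2O rats, without overlap (-0.29 ± 0.13), and Adam10 had 108, 110.3, 100.2 and 108 CPM in Abx rats, against 108.6, 113, 122, 125 and 125 CPM in H2O rats (-0.16 ± 0.054). Erbb3, a neuregulin receptor of oligodendrocytes, had 51.5, 56.7, 32.4 and 69.2 CPM in Abx rats, against 65.3, 63.4, 85.2, 91.1 and 87.6 CPM in H2O rats (-0.58 ± 0.28, adjusted p by edgeR 0.566). With the myelin score as a covariate, Tgfa had -0.36, Adam10 -0.10, Adam17 0.0021 and Erbb3 0.06. The NEDD4 family of ubiquitin ligases had a median of -0.06 over 11 genes. Beside Itch, its member Wwp1 had 61.0, 61.2, 53.2 and 57.7 CPM in Abx rats, against 62.2, 62.9, 66.8, 65.8 and 68.4 CPM in H2O rats, without overlap (-0.16 ± 0.077, adjusted p by edgeR 0.565).

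Glucocorticoid and clock genes included members on both sides. Of 19 tested glucocorticoid receptor and response genes 13 were negative, with a median of -0.17, 6 lower and 1 higher at an unadjusted p below 0.05. The median was -0.02 in the 2-hundreds alone, and without Abx replicate 1 it was -0.08, with 3 lower. Without H2O replicate 3, 2 genes were lower at that p. Of all 12846 genes, 602 were lower at that p without Abx replicate 1 and 569 without H2O replicate 3. Nr3c1, the glucocorticoid receptor, had 147, 151, 139.5 and 153.3 CPM in Abx rats, against 163, 175, 167, 173 and 154 CPM in H2O rats, without overlap and with nearly the same value in both series (-0.17 ± 0.053). Errfi1, a feedback inhibitor of the EGF receptor that glucocorticoids induce, had 50.4, 48.4, 50.6 and 54.6 CPM in Abx rats, against 53.9, 61.3, 71.6, 56.9 and 56.8 CPM in H2O rats, with overlap (-0.24 ± 0.091). Zbtb16, a strong glucocorticoid target in many tissues, lay on the other side, with 11.3, 26.6, 10.5 and 16.4 CPM in Abx rats, against 8.37, 5.99, 9.81, 6.26 and 12.5 CPM in H2O rats (0.92 ± 0.39). Abx replicate 2 was the highest rat, and 1 H2O rat lay among the Abx rats.

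Core clock genes had a median of 0.04 over 16 tested genes. Per2, a repressor of the clock and a glucocorticoid target, had 114, 110.3, 96.3 and 79.01 CPM in Abx rats, against 80.1, 82.0, 83.3, 59.3 and 75.1 CPM in H2O rats (0.40 ± 0.13), and H2O replicates 1 to 3 lay just above the lowest Abx rat. Arntl, the BMAL1 activator, had 48.6, 45.0003, 47.2 and 45.8 CPM in Abx rats, against 49.4, 57.4, 56.7, 50.97 and 54.7 CPM in H2O rats, without overlap (-0.21 ± 0.08), and Ciart, a repressor, had 10.5, 11.8, 12.99 and 11.6 CPM in Abx rats, against 10.98, 9.87, 11.4, 9.37 and 8.89 CPM in H2O rats (0.22 ± 0.10). The time of day at which each rat was killed is not part of the labels.

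Voltage-gated channel genes were higher in Abx in 24 of 30 members, with a median of 0.16. An unadjusted p below 0.05 was reached by 7 of 30, against 3.26% of all genes on this side, and 5 of 30 were without overlap, against 0.887% of all genes. Cacna1b, the N-type calcium channel of nerve terminals, had 173, 162, 192 and 182 CPM in Abx rats, against 151, 125, 153.5, 134 and 156 CPM in H2O rats, without overlap (0.30 ± 0.11). Scn1a, a sodium channel of fast-spiking interneurons, had 56.0, 65.9, 71.8 and 76.2 CPM in Abx rats, against 61.4, 53.2, 51.9, 65.2 and 49.8 CPM in H2O rats, with overlap (0.26 ± 0.10). Cacna1g, a T-type calcium channel, had 89.8, 33.03, 56.1 and 87.0 CPM in Abx rats, against 23.1, 18.2, 21.99, 24.3 and 63.7 CPM in H2O rats (1.14 ± 0.40). H2O replicate 5 lay among the Abx rats, and given the cortical covariate the log2 fold change was 0.18. The list median was 0.26 in the 3-hundreds and 0.03 in the 2-hundreds. The median was 0.10 given the cortical covariate, 0.01 given the myelin score and 0.10 without Abx replicate 3.

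Of 28 genes of synaptic vesicle release 23 were positive, the median was 0.18, and 3 had an unadjusted p below 0.05. Sv2a, a vesicle protein and the target of levetiracetam, had 393, 384, 427 and 442 CPM in Abx rats, against 357, 369, 352, 355 and 346 CPM in H2O rats, without overlap (0.21 ± 0.084). Unc13a and Unc13b, which prime vesicles for release, had log2 fold changes of 0.30 ± 0.13 and 0.55 ± 0.23, and Unc13b stood at 41.6, 32.4, 35.7 and 49.5 CPM in Abx rats, against 27.4, 20.9, 24.2, 27.1 and 36.3 CPM in H2O rats. Given the cortical score as covariate, the list median was -0.05 and Sv2a and Unc13b both had 0.07. With the myelin score the list median was -0.01, with 13 of 28 positive.

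Of 22 glutamate receptor genes 16 were positive, and their median was 0.07. The kainate receptor genes Grik3 and Grik5 and the AMPA receptor gene Gria3 had log2 fold changes of 0.40 ± 0.15, 0.25 ± 0.10 and 0.26 ± 0.12. Given the cortical covariate, Grik3 had 0.08, Grik5 0.31 and Gria3 0.02, and with the myelin score the list median was -0.02 with 9 of 22 positive. Gria3 stood at 331, 290.0, 335 and 369 CPM in Abx rats, against 261, 286, 293, 256 and 288 CPM in H2O rats, with the lowest Abx rat inside the range of H2O. Grm3, a metabotropic receptor also found on astrocytes, lay on the other side, with 131, 139, 112 and 163 CPM in Abx rats, against 144, 161, 188, 199 and 179.8 CPM in H2O rats (-0.36 ± 0.13).

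Of 40 immediate early and activity-regulated genes 37 were positive, 27 of them in both number series, and their median was 0.15. An unadjusted p below 0.05 was found for 4 of 40, against 3.26% of all genes on this side. Fos, a marker of recent neuronal activity, had 50.1, 28.2, 24.6 and 40.2 CPM in Abx rats, against 20.1, 33.2, 17.6, 27.9 and 27.6 CPM in H2O rats (0.50 ± 0.26, adjusted p by edgeR 0.588). Egr1 had 149, 112, 143 and 169 CPM in Abx rats, against 106, 136, 98.1, 92.8 and 113 CPM in H2O rats (0.39 ± 0.20, adjusted p by edgeR 0.583), and Arc, which acts at active synapses, had 422, 168, 222 and 236 CPM in Abx rats, against 165, 198, 110.3, 152.8 and 274 CPM in H2O rats (0.54 ± 0.26, adjusted p by edgeR 0.567). The groups overlapped in each of them. Dusp5, a phosphatase that ends ERK signalling, had 13.7, 7.52, 7.52 and 6.78 CPM in Abx rats, against 5.65, 7.91, 5.02, 3.70 and 6.71 CPM in H2O rats (0.62 ± 0.22), highest in Abx replicate 1, and the repressor gene Klf10 had 31.5, 19.9, 24.6 and 35.1 CPM in Abx rats, against 21.6, 24.4, 13.8, 15.1 and 22.5 CPM in H2O rats (0.51 ± 0.23).

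The immediate early genes with the largest fold changes were high in the same rats as markers of cortical neurons. Bdnf, a growth factor that cortical neurons supply to the striatum, had 25.3, 1.28, 4.56 and 8.60 CPM in Abx rats, against 0.105, 0.906, 0.1102, 0.361 and 6.05 CPM in H2O rats (2.70 ± 1.07). Nr4a2, a nuclear receptor also expressed in deep cortex and claustrum, had 77.7, 8.94, 22.8 and 31.8 CPM in Abx rats, against 2.77, 5.99, 2.92, 3.70 and 35.7 CPM in H2O rats (1.78 ± 0.75). Slc17a7, which loads glutamate into vesicles of cortical neurons, had 506, 43.7, 183 and 458 CPM in Abx rats, against 3.29, 32.8, 3.09, 14.6 and 252 CPM in H2O rats (2.28 ± 1.07, adjusted p by edgeR 0.565). In these 3 genes Abx replicates 1 and 4 and H2O replicate 5 were the highest rats of their groups. Tbr1, a cortical transcription factor, had 60.3, 7.90, 29.9 and 63.2 CPM in Abx rats, against 1.05, 5.19, 0.386, 4.33 and 35.5 CPM in H2O rats (2.10 ± 0.91), Neurod6, another, had 23.4, 3.03, 10.9 and 26.6 CPM in Abx rats, against 0.418, 1.71, 0.441, 0.586 and 11.1 CPM in H2O rats (2.47 ± 0.91), and Cck, a peptide of cortical neurons, had 189, 22.8, 66.8 and 161 CPM in Abx rats, against 6.69, 16.6, 5.46, 7.08 and 91.9 CPM in H2O rats (2.10 ± 0.85). H2O replicate 5 was the highest H2O rat in each of them.

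Over the cortical list, 12 of 13 tested genes were positive with a median of 1.67, and the list score was 5.11, 3.21, 4.17 and 4.82 in Abx rats, against 1.97, 2.91, 1.65, 2.51 and 4.39 in H2O rats. Within each group this score spread more widely than the other 5 scores plotted. The median was 2.49 without H2O replicate 5 and 0.72 without Abx replicate 1. For the immediate early genes, leaving out H2O replicate 5 gave a median of 0.17, and leaving out Abx replicate 1 gave 0.11, with 29 of 40 positive and 0 at an unadjusted p below 0.05. Leaving out H2O replicate 2 gave 0.27, with 12 of 40 at that p, against 351 of all 12846 genes on this side. Once this score was a covariate, 8 of 40 immediate early genes were positive, 0 had an unadjusted p below 0.05, and the median was -0.09. Fos then had -0.12, Egr1 -0.02, Arc -0.05 and Klf10 -0.04. The part of cortical tissue in the dissection was not tested.

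Genes of chromatin regulation, which short-chain fatty acids can affect by inhibiting histone deacetylases, differed little. Over 15 tested histone deacetylase and sirtuin genes the median was 0.03 with 0 at an unadjusted p below 0.05. Hdac1 averaged 35.5 ± 1.76 CPM in Abx rats (SD, n = 4) and 36.7 ± 4.04 CPM in H2O rats (SD, n = 5), and Hdac2 averaged 118 ± 6.99 CPM in Abx rats (SD, n = 4) and 121 ± 8.20 CPM in H2O rats (SD, n = 5). Kdm6b, given above, was the only one of 17 tested histone methylation genes at an unadjusted p below 0.05, and the list median was -0.03. Dnmt3a, which methylates DNA anew, had 70.4, 72.6, 71.4 and 70.7 CPM in Abx rats, against 61.0, 57.5, 67.2, 67.5 and 60.2 CPM in H2O rats, without overlap (0.19 ± 0.10, adjusted p by edgeR 0.605).

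Genes for sensing and using short-chain fatty acids were balanced, with 9 of 19 tested members positive and a median of -0.02. Of 27 listed, 8 were not tested, the receptor gene Ffar3 among them, which had at most 2 counts in any of the 9 libraries. Ffar2, the other main receptor for these acids, stood at 0.632, 0.473, 0.399 and 0.317 CPM in Abx rats, against 0.628, 1.01, 0.386, 0.270 and 0.236 CPM in H2O rats, a low level in both groups. Acly, which makes acetyl-CoA from citrate, had 311, 283, 310.1 and 324 CPM in Abx rats, against 276, 279, 275, 302 and 278 CPM in H2O rats (0.12 ± 0.05), and Bdh1 and Slc16a1 are given above.

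Both number series hold rats of both groups, so that the antibiotics difference could be measured in each. Across the 12846 genes, 55.8% had the same sign in both, 3320 being higher (25.8%) and 3843 lower (29.9%) in both. A test of the difference between the series called 0 genes (0%) with edgeR, where 0.908 was the smallest adjusted p and 601 genes (4.68%) had an unadjusted p below 0.05, and DESeq2 also called 0, with 658 genes at that p. Across genes, which are not independent replicates, Pearson's r of the log2 fold changes was 0.26 and Spearman's rho 0.17. Myelin and MHC genes were negative in both series in 25 of 25 and 15 of 15 members, against 29.9% of all genes. Myelin genes had the larger difference in the 3-hundreds, and MHC genes in the 2-hundreds. Of 25 myelin genes, 0 had an unadjusted p below 0.05 in the 2-hundreds and 16 in the 3-hundreds. Of 15 MHC genes, 12 were at that p in the 2-hundreds and 0 in the 3-hundreds. Among all genes, 280 were lower at that p in the 2-hundreds and 795 in the 3-hundreds. In the 2-hundreds the MHC score was 4.38 in H2O replicate 1 but 2.38 in H2O replicate 2, against 2.28 and 2.34 in Abx replicates 1 and 2. The 2-hundred MHC difference therefore lay mostly in H2O replicate 1. Without H2O replicates 1 and 5, 4 of the 15 MHC genes were positive over both series. Each series holds only 2 Abx rats, and an unadjusted p below 0.05 was reached by 538 genes in the 2-hundreds and by 1232 in the 3-hundreds.

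**Figure D5:**
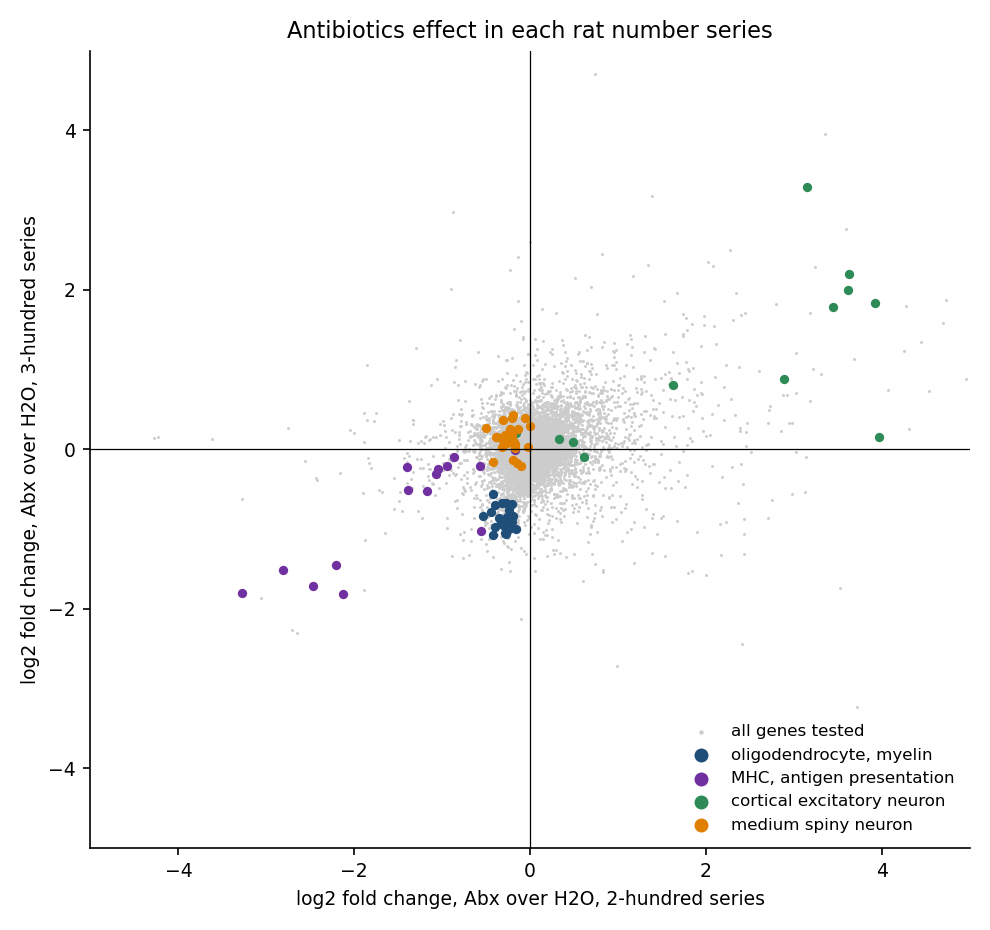
Log2 fold change (Abx over H2O) in rats of the 2-hundred series (horizontal axis) and of the 3-hundred series (vertical axis) for all tested genes in grey, with 4 genes outside the plotted range of ±5, and for genes of 4 lists in colour. Myelin genes (blue) and MHC genes (purple) lay in the lower left, negative in both series, cortical genes (green) mostly in the upper right, and medium spiny neuron genes (orange) mostly negative in the 2-hundreds with a median of 0.14 in the 3-hundreds.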

How the data were processed

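RNA of the nucleus accumbens was sequenced in 20 libraries, 1 per rat. Per the labels' protocols, RNA came from an RNeasy kit, cDNA from a SMARTer kit and the molecule was polyA RNA. The authors deposited whole-number counts per gene symbol. The submitters' processing notes name STAR 2.4.0, FastQC 0.11.6 and limma, and Rnor_6.0 as the build. How reads were counted, with which annotation and with or without strand, is not stated in the labels or the file. Genes that overlap, lie antisense or are near copies of each other are therefore uncertain.

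Groups and rat numbers came from treatment labels and titles. Cage mates are not identified. All 36 pairs among the 9 libraries differed by more than sampling noise in a chi-square test of counts (at least 9.50 per gene). Of 17296 symbols, 1822 were at 0 in every library. The filter filterByExpr (minimum count 10, minimum total 15) left 12846 genes. The test was edgeR 4.0.16's quasi-likelihood F test (R 4.3.3, robust dispersion, TMM scaling) in 1 model of the 4 groups with 16 residual degrees of freedom, with Benjamini-Hochberg adjustment over all genes. The effect in each number series and their difference came from a model with 14. Standard errors derive from the F statistic. CPM uses TMM-adjusted library sizes, and scores are mean log2 CPM with a prior count of 2. Scripts were tested on simulated data.

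The members, the 48 gene lists and the rule for naming genes were chosen with earlier results of these data known. The rule takes, with a mean of at least 1 CPM, the 15 higher and 15 lower genes with the smallest p, the 4 members of each list with the smallest p, 25 genes always given, and genes called by any test run; some of these are not reported here. Lists are described by counts and medians with no test of their own. Alternatives were DESeq2 1.42.0 and its size factors, limma-voom (limma 3.58.1) with quality weights, no filter, 9 libraries only, number series or cortical score as covariates, each series alone, and each library left out.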

Additional observations from a re-analysis of the deposited data

Results flagged for a closer look

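Within groups, 23 of 338 gene or score values had 1 rat apart from the rest of its group by Dixon's criterion, where chance gives about 1 in 20. H2O replicate 1 was the highest of its group in 5 of them. It had 72.4 CPM of Gbp2 (other H2O rats 5.29 to 7.26), 12.2 CPM of Gbp4, 21.6 CPM of Gbp5, 5.96 CPM of Lcn2 and 8.68 CPM of Casp1. H2O replicate 5 was the highest of its group in 10. It had 252 CPM of Slc17a7 (other H2O rats 3.09 to 32.8), 11.1 CPM of Neurod6, 0.425 CPM of Neurod1, 35.5 CPM of Tbr1, 91.9 CPM of Cck, 6.05 CPM of Bdnf, 35.7 CPM of Nr4a2, 63.7 CPM of Cacna1g and 859.6 CPM of Gfap, and a neurotrophin and growth factor list score of 3.53 mean log2 CPM.

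In Abx, replicate 4 stood apart in Klhl14, at 12.3 CPM (other Abx rats 0.316 to 2.11), and in the score of genes of septal and other neighbouring nuclei, at 3.59 mean log2 CPM (others 3.12 to 3.17). Abx replicate 1 was the highest in Casp1, at 4.50 CPM, and in Dusp5, at 13.7 CPM. Abx replicate 2 was the lowest in Gfap, at 362 CPM, and Abx replicate 3 the highest in Tac1, at 333 CPM. In H2O, replicate 4 was the highest in Acly, at 302 CPM, and replicate 3 the lowest in Chac1, at 4.74 CPM. No cause was tested for any of these.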

How the results depend on the processing

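No paired analysis was possible because the labels give no replicate numbers shared between Abx and H2O. The number of called genes was 0 in every setting run except the DESeq2 test, which called 1 gene. The count at an unadjusted p below 0.05, 1129, was 538 in the 2-hundreds alone and ran from 620 to 1433 when 1 library was left out, lowest without Abx replicate 3, and it was 712 without H2O replicate 4. With the myelin score as a covariate, a setting chosen after seeing the data, it was 349. With only the 9 compared libraries in the model it was 1316, with 614 genes higher and 702 lower. On the lower side 25 of 25 myelin, 8 of 15 MHC and 1 of 23 interferon genes then reached that p, against 18, 11 and 4 in the main fit. On the higher side 11 of 28 vesicle release, 13 of 30 voltage-gated channel and 2 of 13 cortical genes did, against 3, 7 and 6. With the number series as a covariate over 20 libraries, 1049 genes reached that p, 417 higher and 632 lower. On the lower side 12 myelin, 11 MHC and 7 interferon genes then did. On the higher side 3 vesicle release, 6 voltage-gated channel and 5 cortical genes did. With that covariate over 9 libraries, 1255 genes did, among them 25 myelin, 7 MHC and 1 interferon genes on the lower side. The count of genes without overlap, 316, was 4162 in the 2-hundreds alone and 3747 in the 3-hundreds alone, where fewer rats must separate, and 398 to 970 when 1 library was left out. The cortical covariate left 1067 genes at an unadjusted p below 0.05, of which 259 were among the 1129. Signs turned in 9 values of named genes. With the myelin score, Erbb3 was 0.058 and Adam17 0.0021. When 1 library was left out Gbp5 ran from -1.30 to 0.029, highest without H2O replicate 1, and without H2O replicates 1 and 5, also chosen after seeing the data, it was 0.079. In the 2-hundreds alone Nod1 was 0.022. With the cortical score, Klf10 was -0.036, Fos -0.12, Egr1 -0.021 and Arc -0.052. The cause was not tested. A score used as a covariate removes its own list by construction. The myelin score also did not overlap between Abx and H2O rats, so that as a covariate it can shrink a group difference in any gene. Scaling by DESeq2 size factors moved the list medians named here by about 0.01 and turned the sign of none of them. Depth limits genes near the floor of 0.118 to 0.171 CPM.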

Other observations

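Cytosolic ribosomal protein genes had negative log2 fold changes in 54 of 59 members, 48 of them negative in both number series, against 29.9% of all genes, with a median of -0.10. On the lower side 2 of 59 had an unadjusted p below 0.05, against 5.53% of all genes. Without Abx replicate 4 the median was -0.02, with 18 of 59 positive, and it was -0.04 with the cortical score and -0.03 with the myelin score as a covariate. Rpl30, the member with the smallest p, had 131, 139.6, 176 and 136 CPM in Abx rats, against 204, 203, 198, 175 and 178 CPM in H2O rats (-0.40 ± 0.10 SE, adjusted p by edgeR 0.563). The 2-hundreds held most of its difference, at -0.59 against -0.23 in the 3-hundreds. The nuclear genes of oxidative phosphorylation, another abundant group, had a median of 0.02 with 0 of 27 at an unadjusted p below 0.05. Cholesterol synthesis genes were positive in 20 of 23 tested members with a median of 0.09, which was -0.15 with the cortical marker score as a covariate.

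Among stress genes, Chac1, a glutathione-degrading enzyme of the unfolded protein response, had 7.34, 6.81, 7.58 and 7.77 CPM in Abx rats, against 6.01, 6.04, 4.74, 5.95 and 5.77 CPM in H2O rats, without overlap (0.37 ± 0.16). Ddit3, or CHOP, a transcription factor of the same response, had 37.7, 28.2, 23.8 and 27.1 CPM in Abx rats, against 26.1, 24.6, 22.5, 25.8 and 26.9 CPM in H2O rats (0.21 ± 0.10, adjusted p by edgeR 0.565). Ddit3 was 0.07 without Abx replicate 1, and given the cortical covariate Chac1 was 0.08. The list of 22 tested stress genes had a median of -0.02. Maoa, which degrades serotonin and dopamine, had 88.6, 90.8, 84.1 and 85.3 CPM in Abx rats, against 97.5, 94.7, 97.2, 99.6 and 89.6 CPM in H2O rats (-0.13 ± 0.049), and 1 H2O rat lay among the Abx rats. Opioid and other neuropeptide genes were positive in 15 of 18 tested members with a median of 0.27. That median was -0.06 in the 2-hundreds alone, with 8 of 18 positive, 0.16 without H2O replicate 3, with 12 positive, and 0.05 with the cortical marker score as a covariate.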
